A study of Homo sapiens with 6 samples.

Results

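ADAM and ADAMTS proteins are metalloproteases that cut other proteins outside the cell or at its surface, and 46 genes of these families were followed in MDA-MB-231 cells in which HMGA2 had been knocked down. The genes were all those whose symbol is ADAM, ADAMTS or ADAMTSL followed by a number, 46 of the 61806 genes in the deposited table. They comprised 22 ADAM genes, 19 ADAMTS genes and 5 ADAMTSL genes. The rule uses the name alone, although these families were picked for study with earlier results of these data known. MDA-MB-231 is an established human triple-negative breast cancer line. RNA was sequenced from 3 derivatives of it, each with 2 libraries. The shNC line carried a control short hairpin RNA, and the shHMGA2-1 and shHMGA2-2 lines carried different hairpins against HMGA2, a chromatin-binding architectural protein. The hairpins were delivered by lentivirus and, per the study's methods, the knockdown lines were picked as single clones, which leaves the effect of a hairpin and the difference between clones impossible to tell apart. The names of the libraries disagree in part with the sample titles, in that those of the controls read WT and those of shHMGA2-1 carry SH2, while those of shHMGA2-2 name neither hairpin. The titles were followed.

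ADAM proteins span the cell membrane, and the active ones release growth factors, cytokines and receptor ectodomains from the surface, a step called shedding. ADAMTS proteins are secreted, carry thrombospondin repeats and cut proteoglycans, procollagens and other matrix proteins. ADAMTSL proteins share the ancillary domains of the ADAMTS proteins, lack the protease domain and bind fibrillin microfibrils. The active site of both protease families is a zinc-binding helix in which 3 histidines hold the metal and a glutamate takes part in the cut.

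The coding sequence of this zinc site is shown for the protease genes on which the results below turn, because it is the feature that sets the protease members apart from the ADAMTSL genes and from part of the ADAM family. Letters are from GENCODE version 29 (GRCh38), read 5′ to 3′ on the coding strand, and the capitals mark the codons for the histidine, the glutamate, the second histidine, the glycine or asparagine at codon 8, and the last histidine of an 11-codon site of 33 bases.
ADAMTS1: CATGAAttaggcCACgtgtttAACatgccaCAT
ADAMTS15: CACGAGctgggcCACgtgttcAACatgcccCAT
ADAMTS6: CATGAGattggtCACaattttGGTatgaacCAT
ADAMTS7: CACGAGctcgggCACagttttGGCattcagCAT
ADAMTS12: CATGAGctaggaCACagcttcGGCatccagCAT
ADAMTS16: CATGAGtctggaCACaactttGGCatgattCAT
ADAM10: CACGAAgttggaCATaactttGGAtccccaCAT
ADAM12: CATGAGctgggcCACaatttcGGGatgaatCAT
ADAM15: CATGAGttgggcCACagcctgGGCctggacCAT
ADAM17: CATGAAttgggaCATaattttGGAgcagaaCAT
ADAM19: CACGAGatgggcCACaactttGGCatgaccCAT

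These sites lie at chr21:26841143-26841867 (minus strand) in ADAMTS1, chr11:130461612-130462109 (plus) in ADAMTS15, chr5:65300116-65329394 (minus) in ADAMTS6 and chr15:78788359-78789705 (minus) in ADAMTS7. Those of ADAMTS12 and ADAMTS16 are at chr5:33649682-33658200 (minus) and chr5:5191774-5200147 (plus). For the ADAM genes, they are at chr15:58627881-58633225 (minus) in ADAM10, chr10:126094059-126094091 (minus) in ADAM12 and chr1:155056995-155057027 (plus) in ADAM15. The site of ADAM17 is at chr2:9510078-9510110 (minus) and that of ADAM19 at chr5:157505734-157505766 (minus). Coordinates longer than 33 bases run across an intron. In all 18 ADAMTS genes with a site, the codons were split over an exon junction, whereas 9 of the 10 ADAM sites examined lay within 1 exon, ADAM10 being the exception. The sites of ADAM9 and ADAM28, both on chromosome 8, were left out of this comparison. ADAMTS1 and ADAMTS15 both carry asparagine at codon 8, as do ADAMTS4 and ADAMTS9, and the sites of ADAMTS1 and ADAMTS15 differed at 6 of 33 bases. The sites of ADAMTS7 and ADAMTS12, which both cut cartilage oligomeric matrix protein, also differed at 6 of 33 bases. That difference was not particular to these pairs. Between the families, the site of ADAMTS6 differed at 6 bases from that of ADAM12 and from that of ADAM19.

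The search was for His-Glu, any 2 residues, His, any 2 residues, Gly or Asn, any 2 residues, His in complete translated coding transcripts. It matched 12 of the 20 ADAM genes annotated as protein-coding, 18 of the 19 ADAMTS genes and 0 of the 5 ADAMTSL genes, against 0.333% of the 19505 protein-coding genes with a complete coding transcript. The 8 ADAM genes without these letters were ADAM2, ADAM7, ADAM11, ADAM18, ADAM22, ADAM23, ADAM29 and ADAM32, and the ADAMTS gene without them was ADAMTS8. ADAM5 and ADAM6 are annotated as pseudogenes.

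Libraries held 16461178 to 17167293 counts, so that 3 counts, the most that a count of 0 can hide, correspond to 0.175 to 0.182 CPM (library counts scaled to a common total). This limit and the counting intervals below cover counting error only. HMGA2, the targeted gene, had 2126 and 2161 counts (shNC), 858 and 989 (shHMGA2-1) and 435 and 482 (shHMGA2-2). The mesenchymal markers VIM, CD44, CAV1 and AXL were present in each library, and of the receptors that define breast cancer classes ESR1 and PGR reached at most 12 and 2 counts while ERBB2 had 1126 to 1909. Of 4 epithelial markers, CDH1 reached at most 4 counts and KRT18 had 1485 to 1947. EPCAM had 146 and 127 counts (shNC), 274 and 302 (shHMGA2-1) and 137 and 133 (shHMGA2-2). Its log2 fold change was 0.9986 in shHMGA2-1 against shNC, and -1.09 in shHMGA2-2 against shHMGA2-1. KRT8 was higher in shHMGA2-2 (3061 and 3417 counts, log2 fold change 1.25) than in shNC (1327 and 1247). Leukocyte and fibroblast markers were near 0: PTPRC reached at most 2 counts, CD14 at most 8, and DCN, LUM and PDGFRA none. Among endothelial markers, PECAM1 had 14 and 11 counts (shNC), 2 and 0 (shHMGA2-1) and 2 and 0 (shHMGA2-2), while CDH5 and VWF reached at most 4 and 3. The part of PECAM1, EPCAM and KRT8 in the results below was not tested. In bulk RNA, fewer cells expressing a gene and less RNA per cell cannot be told apart.

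Of the 46 genes, 25 had enough counts to be tested (12 ADAM, 10 ADAMTS and 3 ADAMTSL genes). The other 21 were not tested. Among them, ADAM2, ADAM6, ADAM7, ADAM18, ADAM29, ADAM30, ADAMTS8, ADAMTS10, ADAMTS18 and ADAMTS19 had 0 counts in all 6 libraries. A further 8 reached at most 3 counts in any library, namely ADAM5 (1), ADAM20 (3), ADAM28 (3), ADAM33 (2), ADAMTS4 (3), ADAMTS5 (3), ADAMTS20 (2) and ADAMTSL2 (2). ADAMTS4 and ADAMTS5, the classical aggrecanases of cartilage, were therefore too low to test at this depth. ADAMTS2 and ADAMTS14, procollagen N-proteinases, reached at most 4 and 8 counts, and ADAMTSL3 had 13 and 4 counts (shNC), 5 and 7 (shHMGA2-1) and 0 and 0 (shHMGA2-2).

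Levels per length are given as the authors' FPKM (counts scaled by exonic size and library total). By the mean FPKM over the 6 libraries, ADAM9 was the highest of the 46 genes, followed by ADAM10 (16.3), ADAM15 (13.9), ADAM19 (6.70) and ADAMTS1 (6.34). ADAM9, a membrane sheddase, ranged from 28.54 to 38.51 FPKM and did not overlap with any other member in any library. ADAM10 and ADAM15 exchanged places between lines, ADAM15 being the higher in shNC and ADAM10 in shHMGA2-2. ADAM17 (4.98), the sheddase of tumour necrosis factor, stood next, ahead of ADAMTSL5 (3.89), ADAMTSL1 (2.76) and ADAMTSL4 (2.34). The lowest tested gene was ADAMTS9, with a mean of 0.0467 FPKM.

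**Figure D1:**
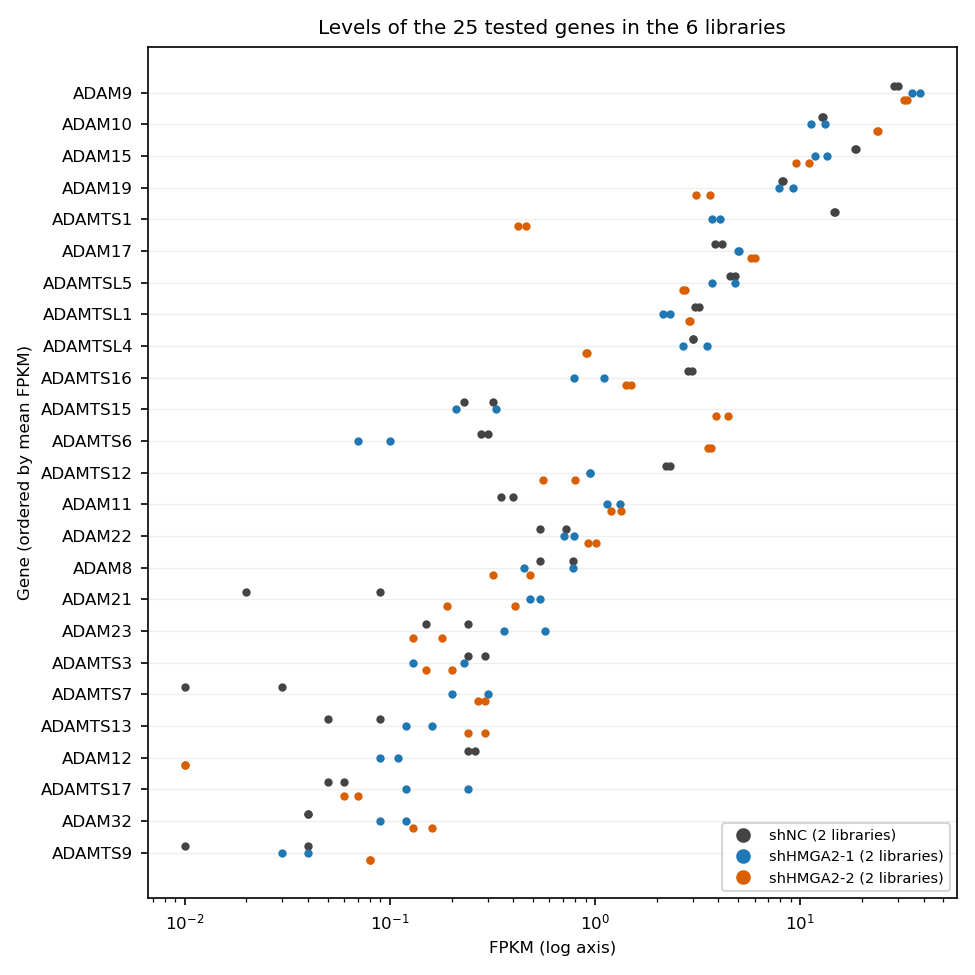
FPKM (log axis) of the 25 tested ADAM, ADAMTS and ADAMTSL genes, ordered by mean FPKM, with a point for each library (black, shNC; blue, shHMGA2-1; orange, shHMGA2-2). ADAM9 lies to the far right in every library at 28.54 to 38.51 FPKM, while ADAMTS1 runs from 14.65 and 14.74 in shNC to 0.42 and 0.46 in shHMGA2-2.

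The summed FPKM of the ADAMTS genes was lower in both knockdown lines than in shNC, and its make-up differed between the lines. Gene by gene, 4 of the 10 tested ADAMTS genes fell and 2 rose in shHMGA2-1 (median log2 fold change -0.35), and 3 fell and 5 rose in shHMGA2-2 (median 0.84), in the test described below. Of all genes tested, 3.59% fell and 4.89% rose in shHMGA2-1 (median 0.01), and 9.65% fell and 11.7% rose in shHMGA2-2 (median 0.03). Of the 5 that rose in shHMGA2-2, ADAMTS7, ADAMTS9 and ADAMTS13 had at most 9 counts in a shNC library. Summed over the 19 ADAMTS genes, FPKM was 20.74 and 21.01 (shNC), 6.79 and 7.15 (shHMGA2-1) and 11.2 and 11.39 (shHMGA2-2). The 3 lines did not overlap, and this sum, set by its most abundant genes, was described and not tested. ADAMTS1 alone made up 70.6% and 70.2% of this sum in shNC, and 54.8% and 56.6% in shHMGA2-1. In shHMGA2-2 its share was 3.75% and 4.04%, and ADAMTS15 (34.6% and 39%) and ADAMTS6 (32.8% and 31.2%) took the leading places. Without ADAMTS1, the sum of the other 18 genes was 6.09 and 6.27 (shNC), 3.07 and 3.1 (shHMGA2-1) and 10.78 and 10.93 (shHMGA2-2), so that it was highest in shHMGA2-2. The ADAM sum stayed within a narrow range, at 76.03 and 74.43 (shNC), 78.29 and 80.24 (shHMGA2-1) and 79 and 79.68 (shHMGA2-2), with ADAM9 supplying 38.3% to 48% of it. The ADAMTSL sum was 10.74 and 11.08 in shNC, 10.69 and 8.58 in shHMGA2-1, and 6.54 in each shHMGA2-2 library.

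**Figure D2:**
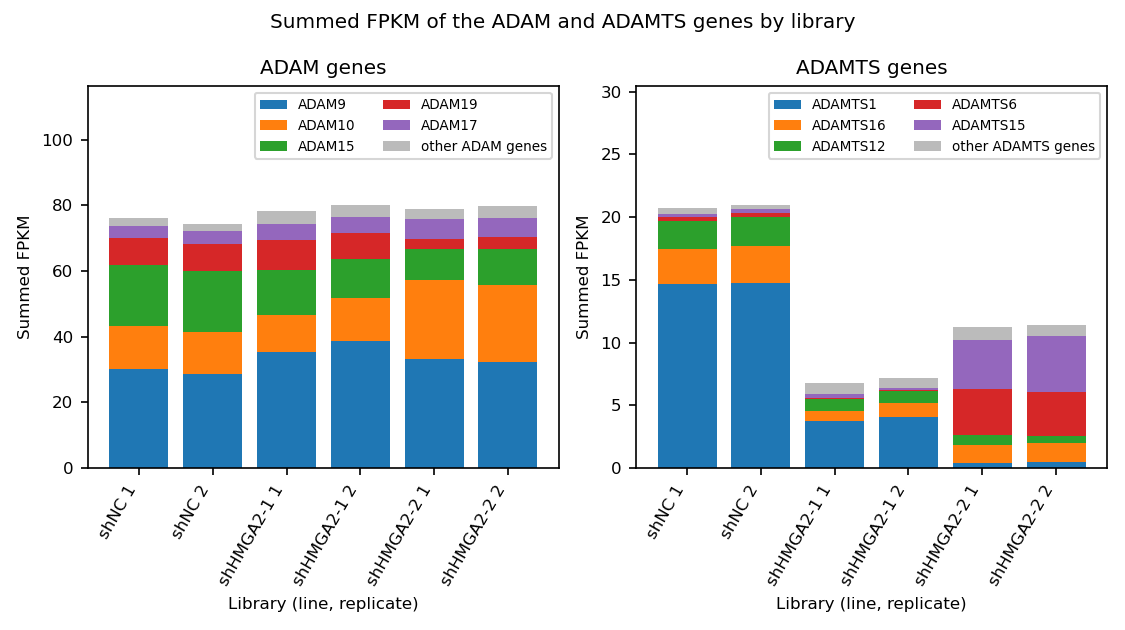
Summed FPKM of the 22 ADAM genes (left) and the 19 ADAMTS genes (right) in each library, with bars from 0 and each colour a gene. The ADAM bars reach 74.43 to 80.24, whereas the ADAMTS bars reach 20.74 and 21.01 (shNC), 6.79 and 7.15 (shHMGA2-1) and 11.2 and 11.39 (shHMGA2-2), ADAMTS6 and ADAMTS15 making up most of the last pair.

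To ask which of these genes differed with knockdown, each line was compared with shNC, and the knockdown lines with each other, by edgeR's quasi-likelihood test on the counts over 16110 genes. A gene was counted as changed at a Benjamini-Hochberg adjusted p under 0.05 with at least a 2-fold difference. The labels do not say whether libraries of a line came from separate cultures, so p-values measure only the spread between these libraries, which may be technical. In shHMGA2-1, 10 of the 25 tested members changed, against 8.49% of all genes tested. They were 5 that fell (3.59% of all genes) and 5 that rose (4.89% of all genes). In shHMGA2-2, 14 changed, against 21.3% of all genes tested, with 6 that fell (9.65% of all genes) and 8 that rose (11.7% of all genes). Without a minimum fold, 14 members passed the test in shHMGA2-1 (33.4% of all genes) and 21 in shHMGA2-2 (58.7% of all genes). Median log2 fold changes of the members were -0.03 in shHMGA2-1 and 0.03 in shHMGA2-2, beside 0.01 and 0.03 over all genes. Both comparisons use the same shNC libraries, so their calls are not independent of each other. Side by side, ADAM12, ADAMTS1, ADAMTS12 and ADAMTS16 were called lower in both lines, ADAM11, ADAM21 and ADAMTS7 higher in both, and ADAMTS6 in opposite directions. The share of all genes tested with such calls in both lines was not computed. This overlap is therefore not read as particular to these families.

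**Figure D3:**
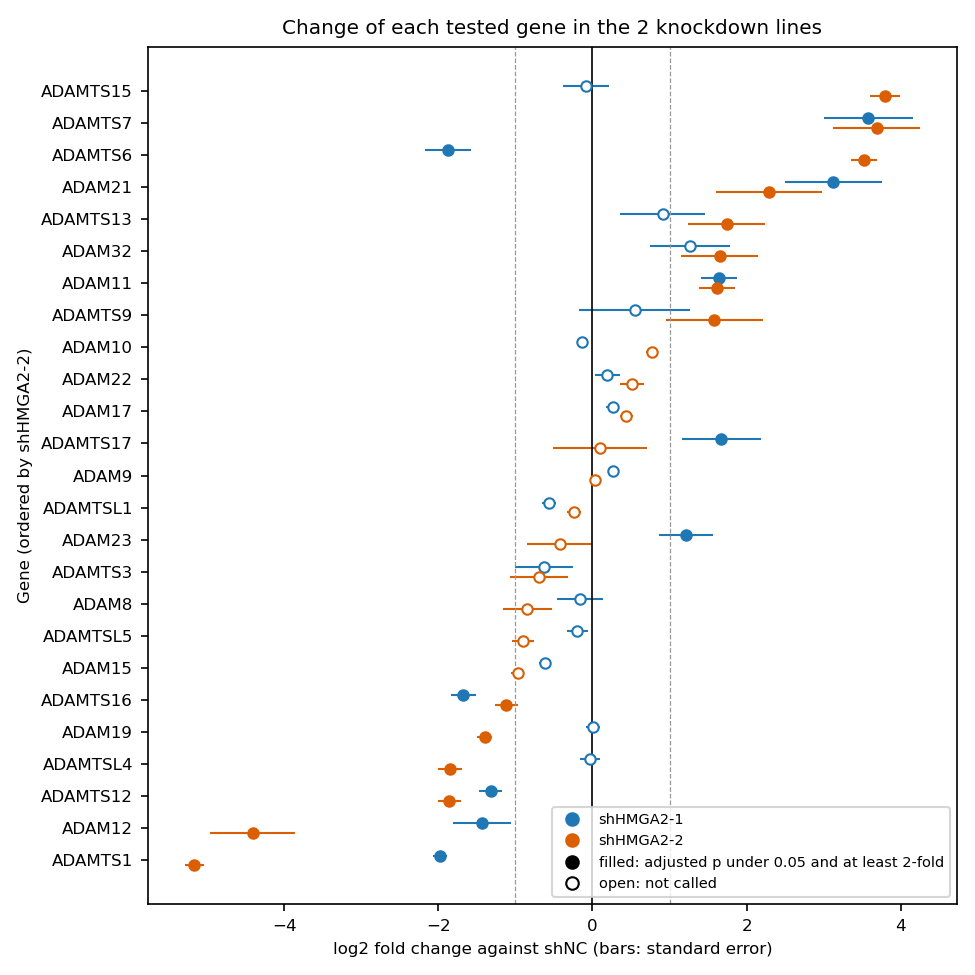
Fitted log2 fold change against shNC for the 25 tested genes in shHMGA2-1 (blue) and shHMGA2-2 (orange), with standard errors as bars, filled points for an adjusted p under 0.05 with at least 2-fold, and dashed lines at 2-fold. ADAMTS6 lies at -1.88 in shHMGA2-1 and 3.52 in shHMGA2-2, and ADAMTS1 lies at -1.98 and -5.17. Several points rest on groups of few counts, among them those of ADAM12, ADAM21, ADAM32, ADAMTS7, ADAMTS9, ADAMTS13 and ADAMTS17.

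ADAMTS1, a secreted protease of versican and aggrecan (chr21:26835755-26845409, minus strand, GRCh38), fell in both knockdown lines and lay far lower in shHMGA2-2. It had 1816 and 1828 counts (shNC), 467 and 506 (shHMGA2-1) and 51 and 56 (shHMGA2-2). No library of a line overlapped with those of another, and the shHMGA2-2 libraries were the lowest. Scaled to library size, these were 112.0 ± 0.566, 28.3 ± 2.05 and 3.11 ± 0.139 CPM (SD, n = 2). The log2 fold change was -1.98 (SE 0.09, adjusted p = 2.47e-14) in shHMGA2-1 and -5.17 (SE 0.12, adjusted p = 1.60e-20) in shHMGA2-2. Its nearest tested neighbours on the chromosome, looked at after these values were known, were distant, APP at 815 kb and N6AMT1 at 2038 kb. APP had -0.12 and -0.36 and N6AMT1 had -0.40 and -0.22 in the respective lines, and neither was called. Over all members called against shNC, 0 of 20 such neighbours were called in shHMGA2-1 (8.49% of all genes tested). In shHMGA2-2, 8 of 28 were called (21.3% of all genes), 4 of them in the direction of the member.

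ADAMTS12 and ADAMTS16 also fell in both lines. ADAMTS12 had 361 and 380 counts (shNC), 157 and 156 (shHMGA2-1) and 126 and 90 (shHMGA2-2). ADAMTS16, reported to cut fibronectin, had 283 and 296, 80 and 111, and 136 and 146 in the same order of lines, an order kept wherever lines are not named below. For both genes the shNC libraries lay above the 4 knockdown libraries without overlap, but the order of the knockdown lines was opposite. For ADAMTS12 the log2 fold change was -1.32 (SE 0.14, adjusted p = 1.01e-07) in shHMGA2-1 and -1.86 (SE 0.15, adjusted p = 1.85e-10) in shHMGA2-2. For ADAMTS16 it was -1.68 (SE 0.16, adjusted p = 1.09e-08) and -1.12 (SE 0.15, adjusted p = 8.62e-07).

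ADAMTS6, a relative of the microfibril-associated ADAMTS10, moved in opposite directions in the knockdown lines. Its counts were 43 and 41 (shNC), 14 and 10 (shHMGA2-1) and 518 and 504 (shHMGA2-2). The lines were fully separated, with shHMGA2-1 lowest and shHMGA2-2 highest. The log2 fold change was -1.88 (SE 0.30, adjusted p = 2.82e-05) in shHMGA2-1 and 3.52 (SE 0.16, adjusted p = 3.32e-15) in shHMGA2-2. ADAMTS15, a versican-cutting protease with the same codon 8 residue as ADAMTS1, had 23 and 33 counts (shNC), 34 and 22 (shHMGA2-1) and 384 and 442 (shHMGA2-2). It stood apart in the shHMGA2-2 libraries, while shNC and shHMGA2-1 overlapped. It rose in shHMGA2-2 (log2 fold change 3.80, SE 0.20, adjusted p = 3.46e-14), and its log2 fold change in shHMGA2-1 was -0.08 (adjusted p = 0.878).

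ADAMTS7 rose from near the counting limit in both lines. It had 4 and 1 counts (shNC), 40 and 26 (shHMGA2-1) and 34 and 37 (shHMGA2-2). As ratios of summed CPM, these were 12.5-fold (95% exact interval 5.09 to 39.8) and 13.4-fold (5.49 to 42.6) above shNC, and the edgeR test gave adjusted p = 2.61e-05 and 5.16e-06. The fitted log2 fold changes were 2.93 and 3.03 without shNC replicate 2, and 4.80 and 4.90 without shNC replicate 1, beside 3.58 and 3.68 with both. ADAMTS7 overlaps MORF4L1, a gene on the other strand with 34244 counts over the 6 libraries, and has pseudogene copies, and the strand setting of the counting is not given in the sources used here, so its counts are uncertain.

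Several ADAMTS genes of low count were called in a single line. ADAMTS17, a gene of the microfibril-linked branch, had 8 and 7 counts (shNC), 34 and 17 (shHMGA2-1) and 9 and 8 (shHMGA2-2). The shHMGA2-1 libraries were the highest, and the log2 fold change there was 1.67 (SE 0.51, adjusted p = 0.0140), a call that was lost with DESeq2 (adjusted p = 0.130), without either shNC library (0.0647 and 0.0922) and without shHMGA2-1 replicate 1 (0.202). ADAMTS13, the protease of von Willebrand factor, had 9 and 5, 16 and 12, and 27 and 23 counts. The shHMGA2-2 libraries were the highest, with a log2 fold change of 1.74 (SE 0.50, adjusted p = 0.00467), which did not pass with DESeq2 (adjusted p = 0.0634) or without shNC replicate 2 (0.0580), and ADAMTS13 overlaps REXO4 on the other strand (5227 counts over the 6 libraries). ADAMTS9, another versican-cutting protease, had 7 and 2, 8 and 6, and 14 and 15 counts. Its log2 fold change of 1.58 in shHMGA2-2 (SE 0.63, adjusted p = 0.0351) was lost with DESeq2 (0.236), without shNC replicate 2 (0.263), without either shHMGA2-2 library (0.0958 and 0.117) and with no filter on low counts (0.0564). Without shNC replicate 1 it was 2.70, and without shNC replicate 2 it was 0.96. ADAMTS3, which processes procollagen and VEGFC, was not called, with 34 and 29 counts (shNC), 16 and 27 (shHMGA2-1) and 23 and 18 (shHMGA2-2).

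Among the ADAMTSL genes, ADAMTSL4 fell in shHMGA2-2. The counts of this fibrillin binder were 329 for each shNC library, 387 and 295 for shHMGA2-1, and 97 and 96 for shHMGA2-2. The shHMGA2-2 libraries lay below all others. The log2 fold change was -1.85 (SE 0.15, adjusted p = 1.65e-10) in shHMGA2-2 and -0.03 (adjusted p = 0.901) in shHMGA2-1. ADAMTSL4 overlaps MCL1, a gene on the other strand with 48760 counts over the 6 libraries. ADAMTSL5, also a fibrillin binder, had 280 and 295 counts (shNC), 301 and 230 (shHMGA2-1) and 161 and 165 (shHMGA2-2). Its log2 fold change in shHMGA2-2 was -0.90 (adjusted p = 7.24e-06), which passed the test without reaching 2-fold. ADAMTSL1 was within 2-fold of shNC in both lines (-0.57 and -0.24).

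Among ADAM genes with a zinc site, ADAM8, ADAM9, ADAM10, ADAM15 and ADAM17 were within 2-fold of shNC in both lines, ADAM19 in shHMGA2-1 alone, and ADAM12 and ADAM21 in neither. ADAM9 had 9055 and 8580 counts (shNC), 10728 and 11674 (shHMGA2-1) and 9629 and 9448 (shHMGA2-2). All knockdown libraries had more counts than either shNC library, yet the log2 fold changes were 0.27 (SE 0.06) and 0.03 (SE 0.06). ADAM10, the main sheddase of Notch receptors, had 3515 and 3475, 3100 and 3623, and 6341 and 6263 counts. Its shHMGA2-2 libraries were the highest, at a log2 fold change of 0.77 (SE 0.07, adjusted p = 2.29e-09), and the shNC libraries lay inside the range of shHMGA2-1 (-0.13, adjusted p = 0.176).

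ADAM15, an integrin-binding sheddase, had 2091 and 2067 counts (shNC), 1532 and 1337 (shHMGA2-1) and 1037 and 1205 (shHMGA2-2). Each knockdown library lay below both shNC libraries. The log2 fold change was -0.61 (SE 0.08, adjusted p = 1.80e-06) in shHMGA2-1 and -0.97 (SE 0.08, adjusted p = 3.17e-10) in shHMGA2-2, just short of 2-fold. For ADAM17 the log2 fold change was 0.26 in shHMGA2-1 (adjusted p = 0.0138) and 0.44 in shHMGA2-2 (adjusted p = 4.46e-05). ADAM8, typical of myeloid cells, was at 25 to 64 counts in all libraries, with log2 fold changes of -0.16 and -0.84.

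ADAM19, a sheddase of neuregulin, fell in shHMGA2-2. Its counts were 1062 and 1076 (shNC), 1218 and 1045 (shHMGA2-1) and 396 and 462 (shHMGA2-2). The shHMGA2-2 libraries were separate from the other 4, at a log2 fold change of -1.40 (SE 0.10, adjusted p = 9.16e-12), beside 0.00 (adjusted p = 0.993) in shHMGA2-1. ADAM19 overlaps CYFIP2 on the other strand, a gene that rose in both lines (log2 fold changes 3.10 and 3.12). ADAM12, which sheds heparin-binding EGF-like growth factor, had 41 and 44 counts for shNC, 18 and 15 in the shHMGA2-1 libraries and 2 in each shHMGA2-2 library. The 3 lines did not overlap. In shHMGA2-1 its log2 fold change was -1.44 (SE 0.38, adjusted p = 0.00459), which did not pass with DESeq2 (adjusted p = 0.0740). In shHMGA2-2 the summed CPM were 22.5 times lower than in shNC (95% exact interval 8.46 to 84.4, edgeR adjusted p = 2.45e-07).

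ADAM21, known for expression in testis, had 5 and 1 counts (shNC), 27 and 30 (shHMGA2-1) and 22 and 10 (shHMGA2-2). The shNC libraries were the lowest, and the ratios of summed CPM were 8.99 (95% exact interval 3.89 to 25.5) and 5.04 (2.08 to 14.8). The edgeR adjusted p was 0.000399 in shHMGA2-1 and 0.00608 in shHMGA2-2, and the latter call was lost without shNC replicate 2 (0.0867) or shHMGA2-2 replicate 1 (0.134). The fitted log2 fold changes of 3.12 and 2.29 became 4.59 and 3.76 without shNC replicate 1, and 2.41 and 1.58 without shNC replicate 2, and the value in shHMGA2-2 was 1.60 without shHMGA2-2 replicate 1. ADAM21 has a near copy, ADAM21P1, between which reads could be split.

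The ADAM genes without the zinc site that could be tested were ADAM11, ADAM22, ADAM23 and ADAM32. The first 3 are known mainly from neurons, where they bind LGI proteins, and ADAM32 from testis. ADAM11 rose in both lines, with 29 and 33 counts (shNC), 110 and 95 (shHMGA2-1) and 95 and 107 (shHMGA2-2). The shNC libraries were lowest and the knockdown lines overlapped, with log2 fold changes of 1.64 (SE 0.23, adjusted p = 4.99e-06) and 1.62 (SE 0.23, adjusted p = 1.99e-06). ADAM23 had 26 and 16, 40 and 63, and 14 and 19 counts. It was highest in shHMGA2-1 (log2 fold change 1.21, SE 0.36, adjusted p = 0.0104), a call that was lost with DESeq2 (0.107), without shNC replicate 2 (0.142) and without shHMGA2-1 replicate 2 (0.156). ADAM32 had 7 and 7, 15 and 21, and 21 and 26 counts. The shNC libraries were lowest, and its log2 fold change was 1.65 in shHMGA2-2 (SE 0.50, adjusted p = 0.00656), not passing with DESeq2 (0.0742) or without shHMGA2-2 replicate 2 (0.0524). ADAM22 was within 2-fold of shNC (0.19 and 0.51).

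The knockdown lines were also compared directly. Of the 25 members, 8 changed between shHMGA2-2 and shHMGA2-1, against 15.1% of all genes tested. Without a minimum fold 15 passed, against 50.2% of all genes. The 6 that were lower in shHMGA2-2 (7.27% of all genes) were ADAM12, ADAM19, ADAM23, ADAMTS1, ADAMTS17 and ADAMTSL4, and the 2 that were higher (7.83% of all genes) were ADAMTS6 and ADAMTS15. ADAMTS6 had a log2 difference of 5.40 (SE 0.20, adjusted p = 1.18e-16) and ADAMTS15 of 3.87 (SE 0.20, adjusted p = 3.69e-14). ADAMTS1 differed by -3.18 (SE 0.14, adjusted p = 1.19e-15). The difference in ADAMTS17 (-1.57, adjusted p = 0.0114) was lost with DESeq2 (0.121), without shHMGA2-1 replicate 1 (0.188) and without either shHMGA2-2 library (0.0564 and 0.0861). ADAM11 and ADAMTS7, by contrast, differed by -0.02 (adjusted p = 0.934) and 0.10 (adjusted p = 0.831) between the lines.

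When the 4 knockdown libraries were fitted as a single group, 4 members changed, against 3.09% of all genes tested, 2 of them lower (1.37% of all genes) and 2 higher (1.72% of all genes). Without a minimum fold 5 passed, against 5.26% of all genes, ADAM15 being the fifth. ADAM11 (log2 fold change 1.63, adjusted p = 0.0127) and ADAMTS7 (adjusted p = 0.0202) were higher, and ADAMTS12 (-1.56, adjusted p = 0.0224) and ADAMTS16 (-1.37, adjusted p = 0.0345) were lower. Each of these calls was lost when either shNC library was left out, as were nearly all calls of this fit over all genes. ADAMTS1, whose knockdown lines lie far apart, had -2.83 with an adjusted p of 0.13 in this fit, which estimated a biological coefficient of variation of 0.291, against 0.0583 with 3 groups.

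The endogenous inhibitors of these proteases were read from a list of 6 genes, of which 4 were tested. In shHMGA2-2, 1 of the 4 was called (21.3% of all genes), and the list had median log2 fold changes of 0.56 in shHMGA2-1 and 0.57 in shHMGA2-2 beside 0.01 and 0.03 over all genes. TIMP3, the inhibitor of ADAM17 and of aggrecan-cutting ADAMTS proteases, rose in shHMGA2-2. Neither shNC library held a count of it, whereas shHMGA2-1 held 2 and 0 and shHMGA2-2 held 41 and 58. Against a floor of 3 counts per library it was at least 15.6-fold higher in shHMGA2-2 than in shNC (edgeR adjusted p = 1.27e-07). None of the other tested inhibitors reached 2-fold in either line: TIMP1, a broad matrix metalloprotease inhibitor, had log2 fold changes of 0.33 and 0.90, TIMP2 had -0.19 and -0.10, and RECK, a membrane-anchored inhibitor, had 0.79 and 0.24.

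Among 15 genes for maturation and trafficking of ADAM and ADAMTS proteins, all tested, 1 rose in shHMGA2-1, and 4 fell and 2 rose in shHMGA2-2 (list medians -0.008441 and 0.40). These are 6.67% and 40% of the list, beside 8.49% and 21.3% of all genes tested. Tetraspanins of the TspanC8 group, which escort ADAM10 to the membrane, were on this list. TSPAN33 had 1 and 3 counts (shNC), 121 and 85 (shHMGA2-1) and 143 and 192 (shHMGA2-2). It was 48.8-fold (95% exact interval 18.8 to 181) and 79.2-fold (30.6 to 292) above shNC, with edgeR adjusted p = 3.89e-10 and 1.90e-12. TSPAN14 had 2045 and 2120, 2740 and 2465, and 486 and 535 counts, and fell in shHMGA2-2 (log2 fold change -2.11, SE 0.08). TSPAN5, at 1376 and 1446, 880 and 968, and 313 and 268 counts, had -0.69 in shHMGA2-1 and fell in shHMGA2-2 (-2.36, SE 0.10). TSPAN15 fell in shHMGA2-2 as well (-1.13, SE 0.16). TSPAN33 thus moved opposite to TSPAN5, TSPAN14 and TSPAN15 in shHMGA2-2. TSPAN17 (0.14 and 0.40) and TSPAN10 (0.77 and -0.51), of the same group, were not called against shNC. TSPAN10, at 7 to 29 counts, was called lower in shHMGA2-2 than in shHMGA2-1 (-1.28). RHBDF1 was the other gene of the list that rose in shHMGA2-2 (1.33, SE 0.15). The proprotein convertase PCSK5 fell in shHMGA2-2 (-2.20, SE 0.24), from 112 and 120 counts to 30 and 23. The convertase FURIN went the other way there, from 899 and 915 counts to 1522 and 1839 (0.81, SE 0.09), short of 2-fold. Between the knockdown lines, FURIN and the convertase PCSK6 were called higher in shHMGA2-2 (1.36 and 1.72).

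Of 32 cell surface substrates of ADAM proteases, 25 were tested. In shHMGA2-1, 3 fell and 3 rose, and in shHMGA2-2, 3 fell and 5 rose, with list medians of -0.08 and 0.08. The called share was 24% and 32% of the list, beside 8.49% and 21.3% of all genes. CXCL16, a transmembrane chemokine shed by ADAM10, rose from 5 and 1 counts in shNC to 54 and 64 in shHMGA2-1 and 66 and 62 in shHMGA2-2. As ratios of summed CPM these were 18.6 (95% exact interval 8.3 to 51.8) and 20.2 (9.02 to 56). The epidermal growth factor receptor ligands did not move as a block. TGFA fell in both lines (-2.51 and -1.07), whereas BTC, at 6 and 13 counts in shNC, rose in both (1.36 and 1.83). EREG fell in shHMGA2-1 (-1.10) and rose in shHMGA2-2 (2.19), and AREG fell in shHMGA2-1 (-1.59) and had 0.63 in shHMGA2-2. HBEGF was within 2-fold of shNC in both lines (-0.002 and 0.64). Syndecan SDC4 rose in shHMGA2-2 (1.93), as did the adhesion molecule L1CAM (2.41). The other syndecan of the list, SDC1, fell in that line (-1.285), as did NOTCH1 (-1.03).

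Of 24 matrix substrates and partners of ADAMTS proteins, 12 were tested. The proteoglycans most often tied to this family were scarce, VCAN reaching at most 6 counts and ACAN none. BCAN, another proteoglycan gene of the list, had 14 and 24 counts (shNC), 37 and 27 (shHMGA2-1) and 1 and 2 (shHMGA2-2). BCAN fell in shHMGA2-2 (log2 fold change -3.635, SE 0.71, edgeR adjusted p = 0.000109), a value that rests on few counts. It was not called in shHMGA2-1 (0.67). In shHMGA2-1, 2 of the 12 fell and 3 rose, and in shHMGA2-2, 4 fell and 3 rose, with list medians of 0.37 and -0.05. The called share was 41.7% and 58.3% of these 12 genes, beside 8.49% and 21.3% of all genes. FN1, encoding fibronectin, had 4187 and 4377 counts (shNC), 321 and 293 (shHMGA2-1) and 177 and 162 (shHMGA2-2), and fell in both lines (-3.88 and -4.74). THBS1, encoding thrombospondin 1, moved like ADAMTS6 in direction, with 3072 and 3086, 1486 and 1353, and 12097 and 12310 counts and log2 fold changes of -1.20 and 1.91. The latent TGF-beta binding protein LTBP3 rose in both lines (1.66 and 2.09). The microfibril protein MFAP2, from 62 and 60 counts in shNC to 5 and 3, and the endocytic receptor LRP1, from 1708 and 1762 to 459 and 461, fell in shHMGA2-2. LRP1 is known to clear several of these proteases from the cell surface.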

How the data were processed

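RNA-seq was made from 6 MDA-MB-231 libraries in 3 lines, grouped by sample title. The authors deposited raw read counts per gene, with no normalization, and FPKM values, made from those counts by exonic size and library total (100% recomputed within rounding). The submitters' processing notes name HISAT2 2.2.1, HTSeq 0.6.1 and GRCh38 p13, and the annotation and strand setting are not given in the sources used here. Sample columns that were not used numbered 0. All 46 identifiers were found in GENCODE version 29, on the same chromosome, 16 with the same start and end.

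Counts were fitted in edgeR 4.0.16 (R 4.3.3) with TMM scaling (factors 0.958 to 1.05), edgeR's expression filter and its quasi-likelihood test in a model with 3 groups, and p-values were adjusted by Benjamini-Hochberg across the 16110 genes. A second model took the 4 knockdown libraries as a single group. Alternatives were DESeq2 1.42.0, the method named by the study, other scalings, filters and call rules, a replicate block and leaving out each library. The code was tested on simulated data. Intervals of count ratios are exact and conditional on the total. Sequences were translated in Python 3.11.15.

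Values are given in full for members called in any of the 3 comparisons and the 5 members of highest mean FPKM, which were 19 genes. Of each of the 4 pathway lists, at most 6 called genes of largest log2 fold change are named. The tested inhibitors are given beside them, with some genes at or near 0 and some that went against the direction of named ones. Members and lists were chosen with earlier results of these data known. Symbols with any further suffix were not included.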

Additional observations from a re-analysis of the deposited data

Results flagged for a closer look

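For 8 genes the effect of knockdown differed between the hairpin lines by the direct contrast of shHMGA2-2 with shHMGA2-1 (edgeR's quasi-likelihood test, log2 difference). In ADAMTS6 it was 5.396, with opposite signs against shNC, and in ADAMTS15 it was 3.874. ADAMTS1 (-3.184), ADAM12 (-2.968), ADAMTSL4 (-1.82), ADAM23 (-1.639), ADAMTS17 (-1.57) and ADAM19 (-1.401) were lower in shHMGA2-2. Each group is a single line, so hairpin and clone cannot be told apart.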

How the results depend on the processing

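With 2 libraries per line, the spread was estimated across all genes, and libraries of 16461178 to 17167293 counts left members under about 10 counts with wide intervals. The ADAM, ADAMTS and ADAMTSL members called were 10 in shHMGA2-1, 14 in shHMGA2-2, 8 between the knockdown lines and 4 with a single knockdown group. In the same order, the calls over all 16110 genes were 1367, 3432, 2432 and 498. Keeping only genes of mean FPKM at least 1 left 4, 7, 5 and 2, because fewer members were tested. Over the 12036 genes kept, the calls were then 579, 1729, 1168 and 291. DESeq2 gave 7, 12, 8 and 5 members, beside 987, 2972, 1898 and 1032 calls over all genes. By adjusted p alone the count between the knockdown lines was 15. Leaving out a library gave 8 to 10, 11 to 15, 7 to 10 and 0 to 4, and the single-group count was 0 when either shNC library was left out, 1 when shHMGA2-2 replicate 1 was, and 2 when shHMGA2-2 replicate 2 was. Over all 16110 genes, the single-group calls were 251 without shHMGA2-2 replicate 1 and 279 without shHMGA2-2 replicate 2. Nearly all of the single-group calls over all genes were lost when either shNC library was left out. With all libraries, the mean of both hairpin contrasts gave 10 members. The replicate numbers did not pair the libraries (correlations of deviations -0.0218, 0.00213 and -0.1). A replicate block gave 10, 14, 8 and 0 called members, beside 1304, 3353, 2352 and 138 calls over all genes. The cause was not tested. Upper quartile scaling moved the median of all genes in shHMGA2-2 to 0.14.

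Among the single genes, signs turned only for values that did not pass the test. With upper quartile scaling, ADAM11 was 0.02775 between the knockdown lines and ADAMTSL4 was 0.03649 in shHMGA2-1. There ADAM19 was -0.01652 with DESeq2, -0.0119 with RLE scaling and -0.01617 without a filter on low counts. Leaving out single libraries gave ranges that crossed 0: between the knockdown lines, -0.1095 to 0.07012 for ADAM11 and -0.1579 to 0.4295 for ADAMTS7; in shHMGA2-1, -0.0954 to 0.09391 for ADAM19, -0.4085 to 0.2041 for ADAMTS15, -0.07728 to 1.666 for ADAMTS9 and -0.2199 to 0.1399 for ADAMTSL4; in shHMGA2-2, -0.004391 to 0.06463 for ADAM9 and -0.008589 to 0.1944 for ADAMTS17.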
